A study of Arabidopsis thaliana with 6 samples.

Results

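miR168 and miR162 are known regulators of 2 core proteins of the miRNA pathway, AGO1 and DCL1. They are described here together with miR838, which has a predicted site in the DCL1 message and whose hairpin lies inside the DCL1 gene, in Arabidopsis thaliana leaf explants with and without a functional EIN2. A sequence was taken if the deposited target sheet gave it a site in AGO1 or DCL1 with a psRNATarget expectation (a penalty for poor pairing, lower being better) of at most 3.5. miR838 was also named by its locus, and its DCL1 site, at 3.5, met the limit as well. This gave 5 precursor entries of 178 and, with entries of identical counts taken once, 3 distinct sequences of 142, namely miR168a/b-5p, miR162a/b-3p and miR838. Small RNA was sequenced from 3 Col-0 libraries, the wild type, and 3 ein2-1 libraries, a mutant of the ethylene signalling protein EIN2. In both groups 14-day-old seedlings were held under water for 1 hour, after which leaf explants stayed 7 days on callus-inducing medium, and the upper part of the explants was taken. Neither genotype had a group without submergence, so the values compare genotypes alone. The tables list miRNAs, so the tissue and the genotype could not be checked against marker genes, and the AGO1 and DCL1 messages themselves were not analysed here.

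DCL1 is the Dicer-like enzyme that cuts most plant miRNAs out of their hairpins, and AGO1 is the slicer that carries them to their targets. Each is itself under miRNA control. miR168, loaded into AGO1, cuts the AGO1 message, and miR162 cuts the DCL1 message, so that the pathway limits its own machinery. DCL1 can also cut the miR838 hairpin out of its own unspliced transcript, which is known as a second route by which DCL1 can limit its message. In bulk tissue, fewer cells that make a miRNA and less of it per cell cannot be told apart.

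The mature sequences as they stand in the deposited sheet are shown first, since target choice rests on them, with the seed (bases 2 to 8) in capitals.
miR168a/b-5p: uCGCUUGGugcaggucgggaa
miR162a/b-3p: uCGAUAAAccucugcauccag
miR838: uUUUCUUCuacuucuugcaca
Each is 21 nt long and begins with U, the first base that AGO1 is known to prefer. The 3 seeds differ from each other, and 0 of the other listed sequences shared any of them. miR838 stood apart in composition, with 17 pyrimidines of 21 bases (81.0%), more than 139 of the 142 sequences, while miR162 had 57.1% and miR168 42.9%.

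The hairpins below, from the TAIR10.1 reference in RefSeq, show with capitals where the counted sequence lies.
MIR168a, chr4:10578635-10578772, plus strand: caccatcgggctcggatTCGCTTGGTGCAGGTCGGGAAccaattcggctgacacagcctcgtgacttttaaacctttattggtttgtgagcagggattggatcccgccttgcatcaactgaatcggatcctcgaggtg
MIR168b, chr5:18358788-18358911, minus strand: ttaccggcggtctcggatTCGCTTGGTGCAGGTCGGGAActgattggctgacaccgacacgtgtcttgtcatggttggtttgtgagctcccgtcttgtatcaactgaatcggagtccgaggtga
MIR162a, chr5:2634905-2635044, minus strand: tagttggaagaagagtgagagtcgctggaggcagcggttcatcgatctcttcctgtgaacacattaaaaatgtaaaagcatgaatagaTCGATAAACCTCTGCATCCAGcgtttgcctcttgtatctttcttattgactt
MIR162b, chr5:7740598-7740708, minus strand: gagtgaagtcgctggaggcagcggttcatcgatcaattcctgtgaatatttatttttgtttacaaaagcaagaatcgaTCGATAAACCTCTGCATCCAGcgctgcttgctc
MIR838, chr1:28500-28706, plus strand: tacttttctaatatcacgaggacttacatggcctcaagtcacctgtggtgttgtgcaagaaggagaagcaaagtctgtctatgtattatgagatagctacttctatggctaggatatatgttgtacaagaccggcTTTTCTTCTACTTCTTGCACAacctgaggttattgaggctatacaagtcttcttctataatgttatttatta
The miR168 sequence is the 5′ arm and the miR162 sequence the 3′ arm of its hairpin. MIR168a and MIR168b give the same mature sequence, as do MIR162a and MIR162b, so the counts cannot be divided between the loci. The opposite arms annotated at these 4 genes (miR168a-3p, miR168b-3p, miR162a-5p and miR162b-5p) were not among the entries, so arm use could not be compared. Folded with RNAfold, the mature stretch had 18 of 21 bases paired in each of the MIR168 and MIR162 hairpins and 19 of 21 in MIR838.

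The predicted sites follow, as RNA, with capitals for bases that form no Watson-Crick pair with the miRNA. They carry the link between these miRNAs and the machinery.
AGO1 site of miR168, chr1:17891529-17891549, minus strand: uucccgaGcugcaUcaagcUa
DCL1 site of miR162, chr1:27522-27627, plus strand, spliced: cuggaugcagagguAuuaucga
DCL1 site of miR838, chr1:28204-28224, plus strand: ugAgAaGgaaguagaagaGGa
All 3 lie in coding sequence, and the sheet gives cleavage as the predicted mode for each. The AGO1 site lies in exon 2 of each of the 3 AGO1 transcripts and has an expectation of 3.0. It pairs with miR168 at 18 of 21 bases, with mismatches opposite miRNA bases 2 and 14 and a G:U pair at base 8. In miR162 all 21 bases pair with the DCL1 site, which also has an expectation of 3.0, and the target holds 1 extra base between those facing miRNA bases 7 and 8. The miR838 site in DCL1, at 3.5, has 16 Watson-Crick pairs, 3 G:U pairs at bases 2, 3 and 15, and 2 mismatches at bases 17 and 19. At each of the 3 sites miRNA bases 10 and 11, between which AGO1 cuts, were paired.

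The miR162 site exists in DCL1 only after splicing. It spans the junction of exons 12 and 13, with 12 bases before and 10 after an intron of 84 bases. The second annotated transcript, AT1G01040.2, ends exon 12 at a later base and so carries 3 extra bases, in capitals below, within the site.
AT1G01040.2, same region, spliced: cuggaugcagagGUUguauuaucga
The sheet pairs miR162 with AT1G01040.1 and not with AT1G01040.2 among the 23944 pairs used here, whereas the miR838 site is given for both transcripts. The sheet as used here has 7 blank lines, so a pair not found in it may still have been predicted. MIR838 lies in intron 14, which is 276 bases long, 872 bases beyond the miR162 site and 275 bases beyond the predicted miR838 site in exon 14. The 207-base hairpin annotation ends 1 base before the end of the intron. The map of DCL1 shows these features in order.

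**Figure D1:**
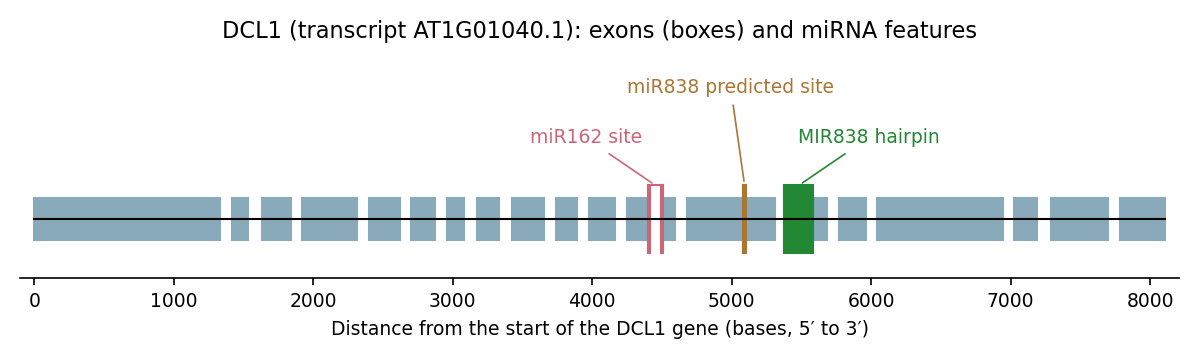
Map of the DCL1 gene, drawn to scale by distance from the gene start in bases, with the 20 exons of transcript AT1G01040.1 as boxes. From 5′ to 3′, the miR162 site, in 2 parts joined by a line, lies across the junction of exons 12 and 13, the predicted miR838 site lies in exon 14 and the MIR838 hairpin lies in intron 14.

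The 3 miRNAs differed in how closely the sheet ties them to the machinery. For miR168, 9 genes had a site at 3.5 or lower. AGO1 was among the 4 at its best expectation of 3.0, and 0 genes had a lower one. For miR162, 14 genes had such a site, and DCL1 was among the 5 at 3.0, behind CYP96A1, a cytochrome P450 gene, at 2.0. For miR838, 97 genes had such a site, of which 79 had a lower expectation than DCL1, the lowest being 1.5, as for SAP10, a stress-associated zinc finger gene. All 19 pairs of miR168 and all 23 of miR162 within the limit were given as cleavage, against 89 of 173 for miR838. Just outside the limit, with an expectation of 4, stood miR860 in DCL1 (3 to 58 counts per library) and unannotated 212 in AGO1 (7 to 19 counts), a 24-nt sequence that matches no annotated MIR gene and is numbered by its entry. Their log2 fold changes (ein2-1 over Col-0) were -3.04 (edgeR adjusted p 5.8e-06) and 0.55 (edgeR adjusted p 0.188), so that miR860 fell and unannotated 212 did not pass. Just inside it, at 3.5, stood miR838.

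The libraries held 559411 to 1882664 counts over the listed entries, which is not their sequencing depth, and 333025 to 987089 with each distinct sequence counted once. ein2-1 libraries had the larger totals in all 3 cases (at least 1163907 against at most 940058 over the entries). Levels are given as CPM, counts scaled per library by TMM to a common effective size, and each fold change is the ein2-1 level over that of Col-0. The intervals on counts and shares cover counting error only. Whether the reads carry molecular identifiers is not known here, so they may repeat a molecule.

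miR168 was lower in ein2-1, miR162 lay somewhat higher without passing the test, and miR838 was a rare sequence that did not pass. Of the 3, 1 fell and 0 rose (edgeR adjusted p below 0.05), and the range of CPM did not overlap between the genotypes for 2 of the 3. Across all 118 distinct sequences tested, 66.9% passed the test, 32.2% as falls and 34.7% as rises, and likewise 66.9% had no overlap between the genotypes. With only 3 members, the counts are too small to be matched to these shares or set apart from them. The plot of levels shows all 18 values.

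**Figure D2:**
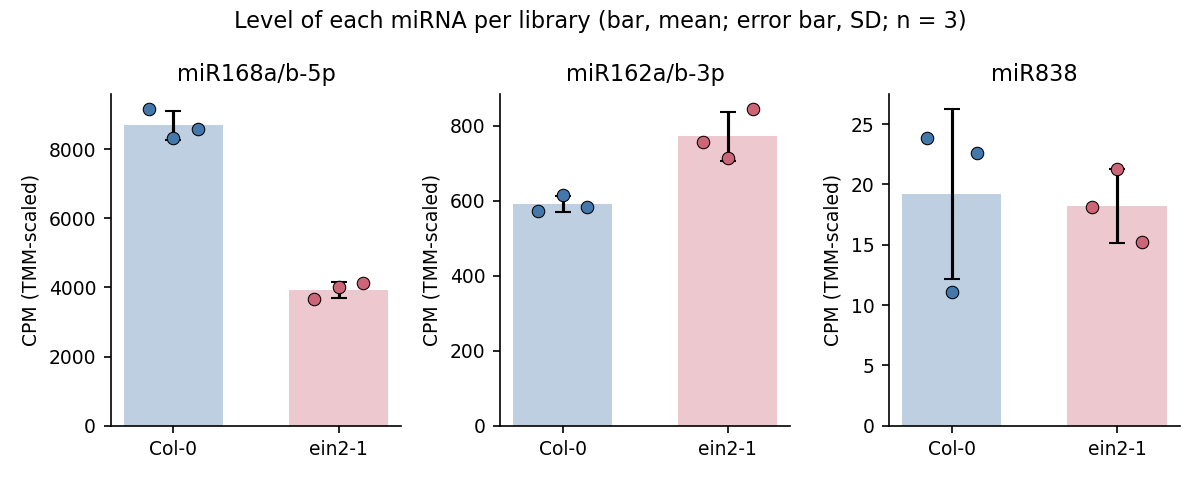
CPM (TMM-scaled counts, separate linear axes from 0) of miR168a/b-5p, miR162a/b-3p and miR838, with 1 point per library, bars for the mean and error bars for the SD of 3 libraries. Col-0 lies above ein2-1 for miR168, below it for miR162, and the groups overlap for miR838.

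miR168a/b-5p, the AGO1 regulator, was counted 10352, 6025 and 6466 times in Col-0 replicates 1 to 3 and 3638, 5819 and 4348 times in ein2-1 replicates 1 to 3. This corresponds to 9150, 8331 and 8588 CPM in Col-0 and 3667, 3999 and 4127 CPM in ein2-1. Every Col-0 library lay above every ein2-1 library, and the spread within a genotype was small, with an SD of 4.82% of the mean in Col-0 and 6.04% in ein2-1. The mean fell from 8690 ± 419 to 3931 ± 237 CPM (SD, n = 3), which is -1.14 on the log2 scale (SE 0.15, 95% interval -1.46 to -0.83, edgeR adjusted p 1.1e-05), or 2.21-fold lower in ein2-1. As a share of all counts, each distinct sequence taken once, miR168 made up 1.86% (95% Wilson interval 1.82 to 1.90), 1.81% (1.76 to 1.86) and 1.92% (1.87 to 1.97) in Col-0 and 0.600% (0.581 to 0.620), 0.590% (0.575 to 0.605) and 0.588% (0.571 to 0.606) in ein2-1. It ranked 11th by count among the 142 sequences in each Col-0 library and 14th, 13th and 15th in ein2-1. The size of the fall was not exceptional, since 28 of the other tested sequences had a lower log2 fold change and 89 a higher one.

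miR162a/b-3p, the DCL1 regulator, was counted 649, 445 and 440 times in Col-0 and 750, 1040 and 889 times in ein2-1. Its level was 574, 615 and 584 CPM in Col-0 and 756, 715 and 844 CPM in ein2-1. On this scale each ein2-1 library lay above each Col-0 library. The means were 591 ± 21.6 and 771 ± 65.9 CPM (SD, n = 3), a log2 fold change of 0.38 (SE 0.17, 95% interval 0.01 to 0.76, unadjusted p 0.0459), which did not pass after adjustment (edgeR adjusted p 0.0622). Leaving out Col-0 replicate 1, 2 or 3 brought it past the threshold as a rise, at 0.52, 0.61 and 0.53 (edgeR adjusted p 0.0388, 0.0222 and 0.0312). Leaving out ein2-1 replicate 1, 2 or 3 did not, at 0.39, 0.44 and 0.32 (edgeR adjusted p 0.0889, 0.0588 and 0.0850). Nor did miR162 pass in DESeq2 (0.24, adjusted p 0.264) or limma-voom (0.38, adjusted p 0.0681). In the authors' deposited table it has a log2 fold change of 0.54 with an FDR of 0.000309, in columns named for a likelihood ratio test, and the quasi-likelihood test without a count filter gave 0.54 as well (edgeR adjusted p 0.0107). As a share of the distinct-sequence total the genotypes overlapped, with 0.117% (95% Wilson interval 0.108 to 0.126), 0.134% (0.122 to 0.147) and 0.131% (0.119 to 0.143) in Col-0 and 0.124% (0.115 to 0.133), 0.105% (0.0992 to 0.112) and 0.120% (0.113 to 0.128) in ein2-1. By rank it stood at 24, 23 and 24 in Col-0 and at 19 in each ein2-1 library.

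miR838, from the DCL1 intron, was counted 27, 8 and 17 times in Col-0 and 18, 31 and 16 times in ein2-1. Its CPM values of 23.9, 11.1 and 22.6 in Col-0 enclosed those of 18.1, 21.3 and 15.2 in ein2-1. The means were 19.2 ± 7.05 and 18.2 ± 3.06 CPM (SD, n = 3), and the log2 fold change was -0.09 (SE 0.32, 95% interval -0.79 to 0.60, edgeR adjusted p 0.825). The counts limit what can be seen. The 8 counts of Col-0 replicate 2 have an exact 95% Poisson interval of 3.45 to 15.8, and no library held more than 31. Without Col-0 replicate 1 or 3, or without ein2-1 replicate 3, the value turned to 0.28, 0.18 and 0.02 and did not pass.

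**Figure D3:**
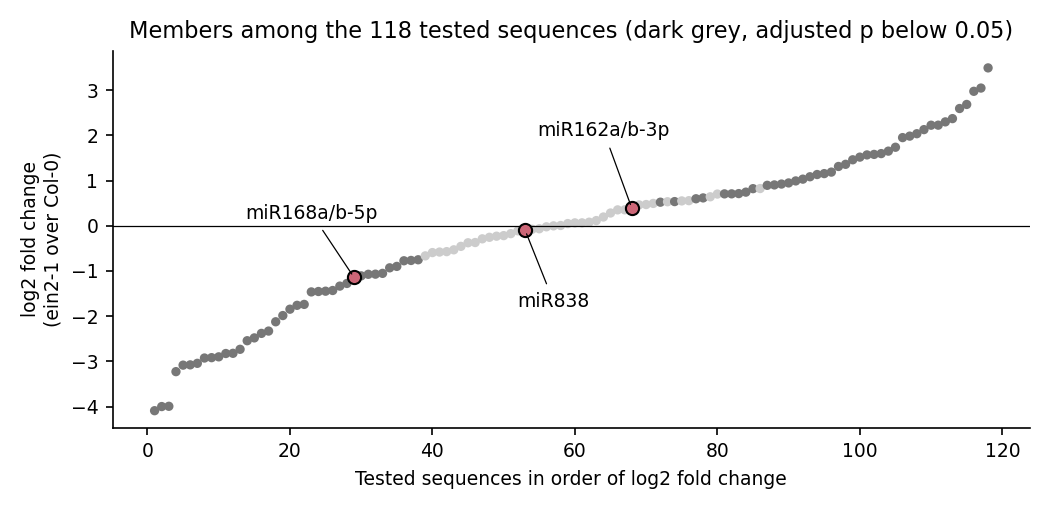
Log2 fold change (ein2-1 over Col-0, edgeR with TMM scaling) of the 118 tested sequences in rising order, dark grey where the adjusted p was below 0.05 and light grey otherwise, with the 3 members in red. miR168a/b-5p lies in the lower part with 28 sequences below it, and miR838 and miR162a/b-3p lie near the middle with 52 and 67 below them.

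miR166, the most abundant miRNA, made up 44.6% to 46.2% of the entry totals in Col-0 libraries and 58.2% to 60.03% in ein2-1 libraries, where it is listed in 3 entries. With each sequence counted once it made up 24.97% to 26.002% of the Col-0 totals against 37.2% to 38.7% of those of ein2-1. The scaling was varied, once with miR166 left out. miR168 fell under each of the 6 scalings tried, with log2 fold changes from -1.84 (library size alone) to -0.85 (TMM without miR166 in the totals). miR162 ranged from -0.31 (library size alone) to 0.69 (TMM without miR166), changed sign, and passed in 1 of the 6, as a rise under TMM without miR166. miR838 ranged from -0.78 to 0.19 and passed in 1 of the 6, as a fall under library size alone (edgeR adjusted p 0.0441). The median log2 fold change of all tested sequences moved with them, from -0.64 to 0.34. A scaling shifts all sequences by about the same amount, so the distance of a member from that median is nearly fixed by construction and is no sign of stability. Under TMM it was -1.20 for miR168, 0.33 for miR162 and -0.15 for miR838.

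**Figure D4:**
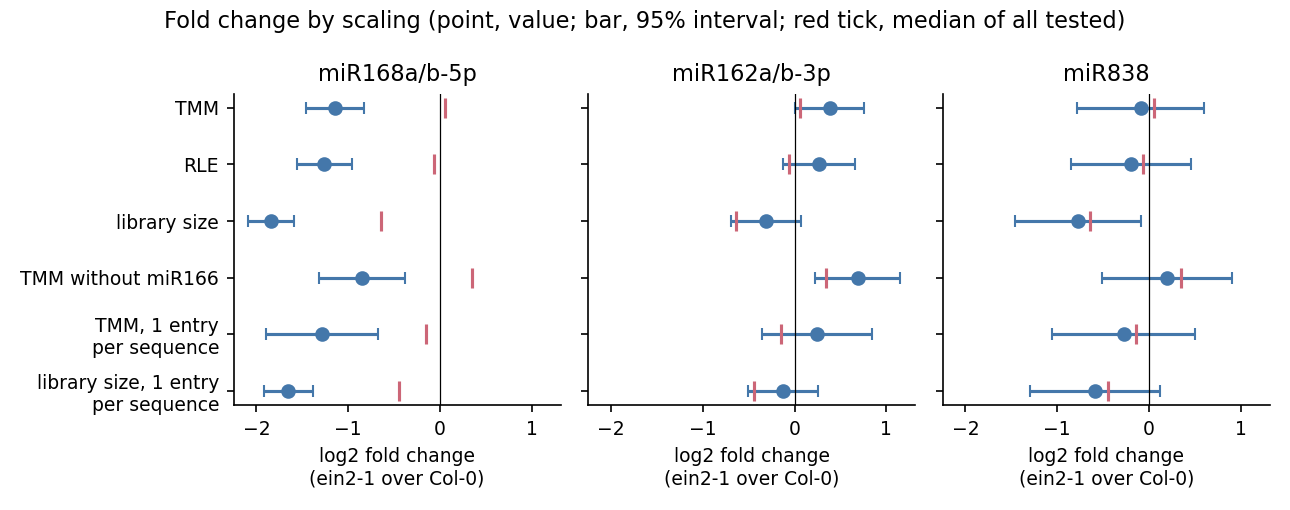
Log2 fold change (ein2-1 over Col-0, x axis) of each member under 6 scalings (rows), with points for the value, bars for the 95% interval of edgeR's quasi-likelihood fit and red ticks for the median over all tested sequences. The points and the ticks shift together by construction, and miR168a/b-5p lies below 0 in every row, from -1.84 to -0.85.

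A ratio of 2 miRNAs counted in the same library needs no scaling. miR168 outnumbered miR162 by 15.95, 13.5 and 14.7 to 1 in the Col-0 libraries, against 4.85, 5.60 and 4.89 to 1 in those of ein2-1. The lowest Col-0 ratio thus lay far above the highest ein2-1 ratio. On the log2 scale the ratio was 3.88 ± 0.12 in Col-0 against 2.35 ± 0.12 in ein2-1 (SD, n = 3), a difference of -1.53, or 2.88-fold lower in ein2-1, with a two-sided exact permutation p of 0.1 (0.15 adjusted over the 3 pairs of members). With 3 libraries against 3 this is the smallest p the test can give, so it cannot pass 0.05. With any 1 library left out the difference was -1.59 to -1.47.

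The ratios to miR838 were less precise. miR168 over miR838 was 383, 753 and 380 in Col-0 against 202, 188 and 272 in ein2-1, again with no overlap. Its log2 difference was -1.12 (means 8.85 ± 0.54 and 7.73 ± 0.27, SD, n = 3, exact permutation p 0.1, adjusted 0.15). The high value of 753 belongs to Col-0 replicate 2, where miR838 had 8 counts, and without that library the difference was -0.81. miR162 over miR838 was 24.04, 55.6 and 25.9 in Col-0 against 41.7, 33.5 and 55.6 in ein2-1, so the genotypes overlapped, with a log2 difference of 0.40 (means 4.98 ± 0.64 and 5.38 ± 0.35, SD, n = 3, exact permutation p 0.3, adjusted 0.3). With 1 library left out it was 0.20 to 0.77, the highest being without Col-0 replicate 2.

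**Figure D5:**
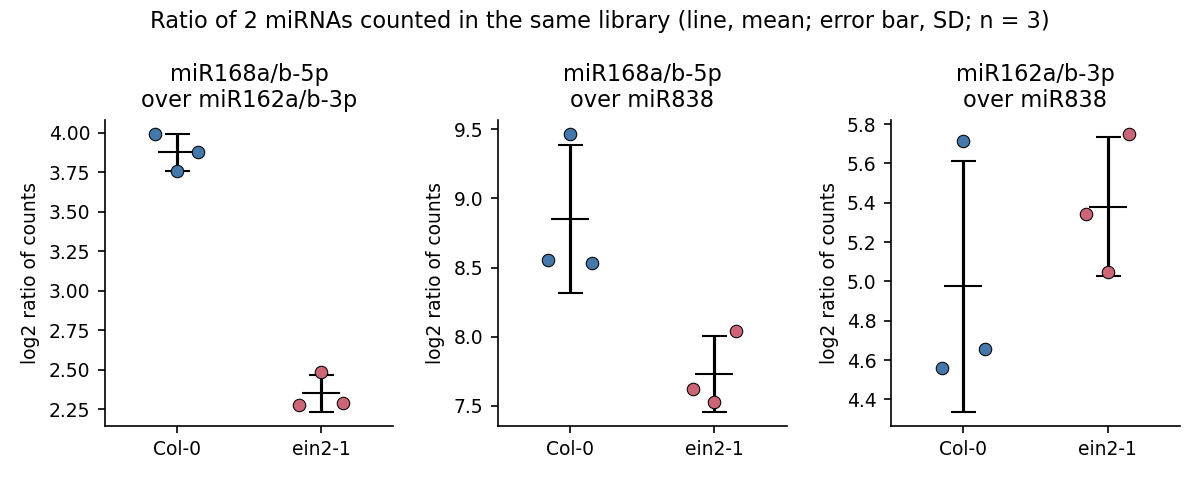
Log2 ratio of the counts of 2 members in the same library (y axes with separate ranges), 1 point per library, with the mean as a line and the SD of 3 libraries as an error bar. The ratio of miR168a/b-5p to miR162a/b-3p spans 3.76 to 3.99 for the Col-0 libraries and 2.28 to 2.48 for those of ein2-1.

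A list was made of 9 miRNAs that act on the small-RNA machinery or trigger secondary small RNAs. It is not complete and was chosen with earlier results of these data known. Tested sequences were present for 5, namely the 3 above, miR161.2 and miR390a/b-5p. miR403, miR173, miR472 and miR828 had no tested sequence here. Of the 5, 3 fell, 0 rose and 2 did not pass, against 32.2% falls and 34.7% rises among all tested sequences. These counts depend on the choice of the list. Outside it, miR393a/b-5p was at 2.97 (edgeR adjusted p 3.2e-07) and miR400 at -0.17 (edgeR adjusted p 0.537). The median log2 fold change of the list was -0.90, which is the value of miR161.2, while that of the 3 members alone was -0.09 and that of all tested sequences 0.06. miR390a/b-5p, which starts the production of the tasiRNAs that act on auxin response factors, was at 15745, 18635 and 18236 CPM in Col-0 and 5140, 3815 and 6802 CPM in ein2-1, with no overlap, and fell by 1.74 on the log2 scale (SE 0.20; adjusted p 4.9e-06 in edgeR). miR161.2, which acts on messages of PPR proteins and triggers small RNAs from them, was at 10942, 10628 and 11035 CPM in Col-0 and 6027, 5915 and 5541 CPM in ein2-1, also with no overlap and at -0.90 (SE 0.14, edgeR adjusted p 6.3e-05).

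Among 32 genes of the small-RNA machinery, of which 31 were matched to a single locus, 7 had a site at the expectation limit of 3.5 for any listed sequence. Beside AGO1 and DCL1 these were AGO3, AGO10, DCL3, DCL4 and HEN1, the methylase that protects miRNA ends. They carried sites for 9 sequences, 3 of them the members, of which 1 rose, 2 fell, 5 did not pass and 1 was below the count filter. Among all tested sequences 34.7% rose and 32.2% fell. The rise was that of miR156a/b/c/d/e/f-5p, best known for its SPL targets, with a site in AGO3, at 1.13 (SE 0.18, edgeR adjusted p 6.3e-05). The other fall was that of unannotated 17, with a site in AGO10, an AGO1 relative that sequesters miR166, whose level went from 71.1 ± 11.8 to 12.5 ± 5.49 CPM (SD, n = 3), or -2.54 on the log2 scale (edgeR adjusted p 2.0e-05). That sequence of 20 nt has 8 exact matches in the genome, and 8 of the 8 lie outside annotated MIR genes. AGO2, AGO7, HYL1, SE and RDR6 had no site at the limit among the pairs used here, with the blank lines of the sheet as a limit.

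The tested sequences closest in pattern to each member were taken by the root mean square distance between log2 CPM profiles over the 6 libraries, each centred on its own mean. Fold changes near that of the member follow from this choice and are given as description only. For miR168 they were miR167a-3p (distance 0.15, log2 fold change -1.07), miR161.2 (0.15, -0.90) and miR781a/b (0.22, -1.46), where the median distance over 115 sequences was 0.88. For miR162 they were miR164a/b-5p (0.09, log2 fold change 0.49), a product of MIR447a/b (0.11, 0.19) and miR157a/b/c-5p (0.13, 0.35), none of which passed the test, with a median distance of 0.61. For miR838 they were unannotated 38 (0.16, log2 fold change -0.02), unannotated 79 (0.20, 0.01) and miR396a-5p (0.30, -0.08), with a median of 0.72. The first 2 were about as rare as miR838, at 19.3 ± 5.97 and 9.53 ± 2.74 CPM in Col-0 (SD, n = 3), and miR396a-5p was abundant at 23396 ± 2327 CPM.

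None of the 5 entries of these miRNAs is in the authors' own list of 46 changed entries, whose smallest absolute log2 fold change is 1.06. The authors' deposited table gives miR168 a log2 fold change of -0.99 with an FDR of 2.6e-14, and miR838 one of 0.06 with an FDR of 0.870. The authors' normalised counts for miR168 were 8649, 7882 and 8127 in Col-0 against 4213, 4174 and 4045 in ein2-1.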

How the data were processed

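Small RNA counts were analysed for 3 libraries of Col-0 and 3 of ein2-1, which the series' design text calls biological replicates. The submitters' processing notes name cutadapt and the TAIR10 build. No aligner or counter is named there. The authors deposited raw counts per precursor entry, per the file headers. They also deposited normalised counts, a score scaled to a common size and rounded to whole numbers, and a comparison with log2 fold changes, a likelihood ratio score, p-values and FDR. The deposited psRNATarget expectation is a score per predicted site.

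Precursors sharing a mature sequence have the same counts in the deposited table. The 178 entries were filtered with filterByExpr defaults. Those kept entered a quasi-likelihood test (R 4.3.3, edgeR 4.0.16, TMM, genotype as the only term, two-sided). Benjamini-Hochberg adjustment ran over all tested entries, which hold 118 distinct sequences, with a threshold of 0.05. The filter, TMM over the kept entries and repeated entries each bear on the fold changes. SE is the absolute log2 fold change over the square root of F. Ratios used counts plus 0.5 and exact permutation tests (scipy 1.17.1), and pattern distances log2(CPM + 1). Mature sequences were placed on TAIR10.1 by exact match. Sites were read from the spliced RefSeq transcripts, which matched the sheet in length and sequence at each of the 6 site rows. Hairpins were folded with RNAfold 2.7.2.

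The members and both lists were chosen with earlier results of these data known. Every member and tested list sequence is named, with the 3 closest sequences per member and each member's best site. The gene symbol HST matched more than 1 locus and was left out of the matched genes. Alternatives were RLE, library-size and distinct-sequence scalings, DESeq2, limma-voom, other filters and thresholds, a replicate block and leaving out each library.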

Additional observations from a re-analysis of the deposited data

How the results depend on the processing

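The fall of miR168 kept its direction and passed under all 16 alternatives, with log2 fold changes of -1.84 to -0.85. miR162 stayed above 0 in 14 of 16 and turned to -0.31 and -0.12 under library-size scaling with all entries and with 1 entry per sequence. It passed at 0.69 under TMM without the most abundant miRNA and at 0.54 without a count filter. With 1 library left out it ranged from 0.32 to 0.61 and passed only when that library was of Col-0. miR838 passed at -0.78 under library-size scaling, turned to 0.19 under TMM without the most abundant miRNA and to 0.062 without a filter, and ranged from -0.24 to 0.28 with 1 library left out. A scaling moves all sequences together, with a median shift from TMM of -0.69 under library-size scaling and 0.29 without the most abundant miRNA. The cause of the other shifts was not tested. The number of the 3 members called was 1, and 2 under library-size scaling, TMM without the most abundant miRNA, no filter and an adjusted p below 0.1, and 1 to 2 with 1 library left out. The background moved as well. Of all 118 tested sequences, 41 rose and 38 fell under TMM, against 21 and 59 under library-size scaling. Under TMM without the most abundant miRNA 50 rose and 33 fell. For the other settings with 2 members called, the share over all sequences is not given here. An expectation limit of 5 gave 7 members in place of 3. The number called in the list of 5, in either direction, was 3 to 4. The added call was miR838 as a fall under library-size scaling. It was miR162 as a rise under TMM without the most abundant miRNA, without a filter, or with any 1 Col-0 library left out. The rises and falls over all sequences given above are the background for these scalings, and are not given for the other settings. Same-numbered libraries correlated at 0.21, -0.05 and 0.17 in their deviations from the group means. The largest correlation of the same Col-0 library with a differently numbered ein2-1 library was 0.02, 0.04 and 0.03. Libraries were not taken as pairs in the main fit. With a replicate block miR168 was at -1.15, miR162 at 0.38 (edgeR adjusted p 0.0746) and miR838 at -0.06, with no call changed. Depth limits miR838, at 8 to 31 counts. The fit with an arm of 2 libraries shares the spread over both genotypes.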
